A study of Drosophila melanogaster with 6 samples.

Results

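Sex-lethal (Sxl) and 6 genes that work with it in splicing, snf, vir, fl(2)d, nito, U2af38 and U2af50, were followed in the heads of adult Drosophila melanogaster males that carried the Sxlfp7BO deletion and in wild-type males. Members were all probe sets for which the platform annotation names 1 of these 7 genes, under its current or an older symbol. This gave 9 of 18769 probe sets that are not controls, for 6 of the 7 genes. Sxl had 3 probe sets, nito had 2, and vir, fl(2)d, U2af38 and U2af50 had 1 each. None is named snf in the annotation used here, so snf was not analysed here. None of the 9 is assigned to a further gene.

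The 3 deletion samples came from males labelled cm Sxlfp7BO ct, in which a small deletion takes away the Sxl locus, and the 3 wild-type samples from males labelled Wildtype Oregon-R. Both kinds of male were 2 to 5 days old, were kept at 25 °C and were brothers out of crosses of a single pair, after repeated backcrossing of the deletion to Oregon-R. Deletion males also carried the markers cm and ct on either side of the deletion, so differences cannot be assigned to Sxl alone. The labels call the samples biological replicates, and the number of heads per sample is not stated.

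Sxl encodes an RNA-binding protein that sets female development. In females the protein binds uridine-rich stretches of its own pre-mRNA and makes the splicing machinery skip an exon with an early stop codon, so that more Sxl protein is made. In males this exon stays in the mRNA and the locus gives a transcript without a full-length protein. Skipping in females needs snf, a protein of the U1 and U2 small nuclear ribonucleoproteins (snRNPs), the subunits of U2AF, which mark the 3′ splice site, and vir, fl(2)d and nito, which belong to the complex that writes the RNA mark N6-methyladenosine (m6A).

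Sxl signal was lower in deletion males on all 3 probe sets, to values that between 0.048% and 21.3% of an array's probe sets lay below, and no cofactor probe set passed the test. Probe set 1625620_a_at read 88.8, 102.7 and 101.8 (array intensity, replicates 1 to 3) in wild type and 5.38, 4.17 and 4.39 in deletion males. Probe set 1632915_s_at read 145.2, 164.2 and 155.9 in wild type and 6.18, 6.14 and 6.26 in deletion males. Probe set 1634337_s_at read 159.2, 204.95 and 205.6 in wild type and 5.25, 6.05 and 3.99 in deletion males. The genotypes were far apart on every Sxl probe set, and wild-type replicate 1 was the lowest of the wild-type arrays on all 3. The suffix of the last 2 marks probes that can match transcripts of more than 1 gene, by the array maker's naming, although the annotation assigns both to Sxl only.

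The mean Sxl intensity in deletion males was 4.75%, 3.99% and 2.68% of that in wild type on the probe sets in the order above. The log2 fold changes from wild type to deletion, on the log2(intensity + 1) scale used throughout, were -4.13 ± 0.11, -4.44 ± 0.08 and -4.97 ± 0.15 (SE, n = 3 arrays per genotype), with limma adjusted p of 2.28e-06, 2.01e-07 and 5.03e-06. The limma test is a linear model fitted over all tested probe sets, with Benjamini-Hochberg adjustment over the same probe sets. With 16 in place of 1 added to the intensity, the same changes were -2.46, -2.95 and -3.28, all with the call kept in limma. The lowest value of any probe set was 3.52 over the 6 arrays, and Sxl in deletion males lay between 3.99 and 6.26. No background level comes with these values, so the change may be understated and the sizes on the 3 probe sets cannot be ranked. All 3 passed the filter on dim probe sets, set at the 40th percentile of mean log2 values (8.35 as an intensity), through the wild-type arrays alone. Among all 11261 tested probe sets 293 passed the threshold of adjusted p 0.05, which is 2.60%, and 1.38% passed it with the deletion lower. Sxl is the gene deleted, so its fall checks the labels: all 6 arrays matched their genotype.

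**Figure D1:**
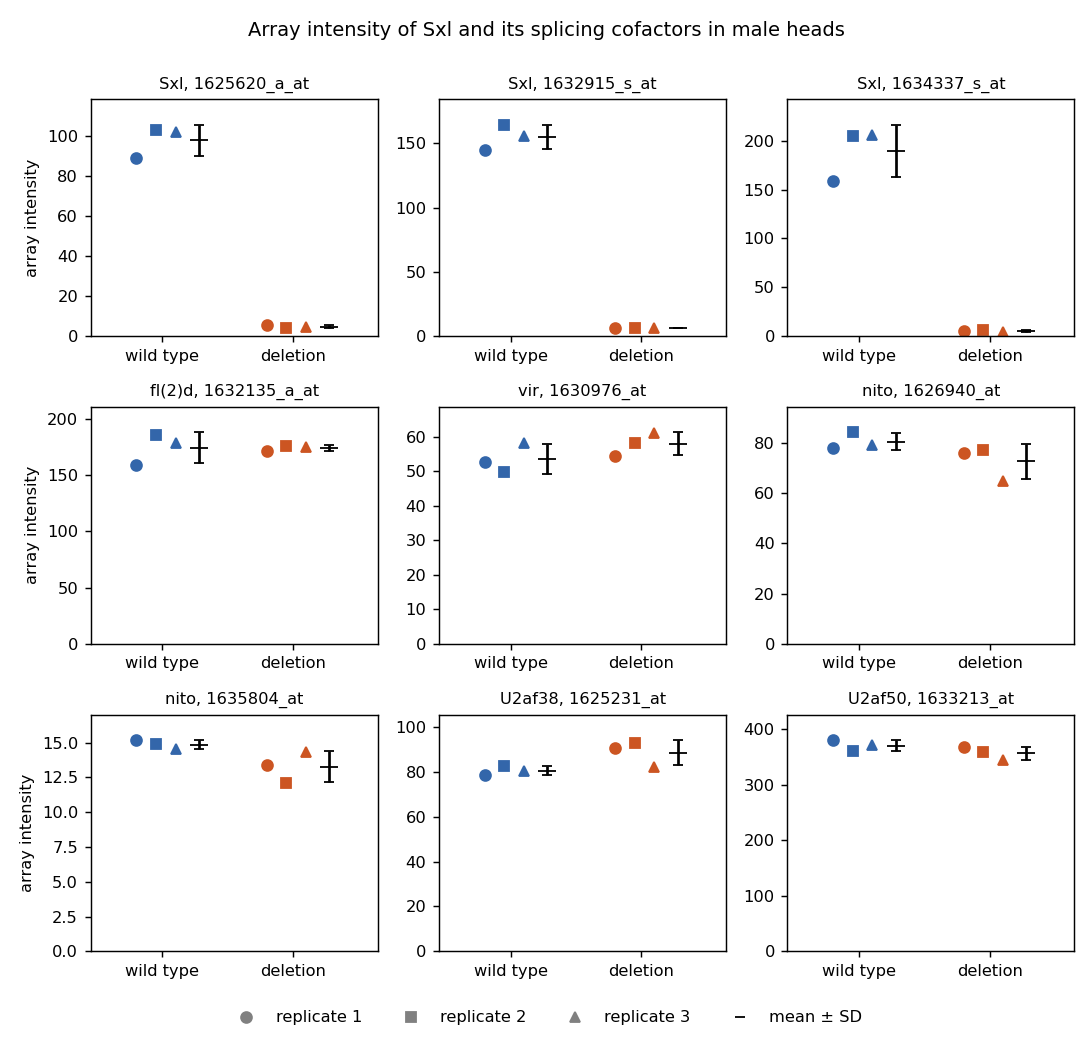
Array intensity (linear axis from 0) of the 9 probe sets on each array, with replicates 1 to 3 as circles, squares and triangles, wild type in blue and deletion in orange, and black bars for mean ± SD (n = 3). The Sxl values of the deletion males lie between 3.99 and 6.26, while the cofactor values of the genotypes lie close together.

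The named genes with the profile most like Sxl over the 6 arrays, by Euclidean distance of log2 values taken relative to the wild-type mean, were CG4615 (distance 0.53), CG8300 (2.93) and CG4617 (4.77). All are on the X chromosome, as Sxl is, and all were called lower in deletion males (limma adjusted p = 1.38e-05, 5.67e-05 and 0.00168). They were picked by their likeness to Sxl, so these calls are no separate evidence. A probe set with no change would lie at 7.82, and the median over 9662 probe sets with 1 gene name was 7.83. CG4615 read 232.8, 197.3 and 243.0 in wild type and 9.77, 8.95 and 5.93 in deletion males. By the means this was 3.66% of wild type, with CG8300 at 12.9% and CG4617 at 26.2%. Where these genes lie relative to the deletion was not examined, and whether it also takes them away was not tested. The marker gene cm, whose product helps carry cargo to eye pigment granules, was at 60.3 ± 2.98 in wild type and 24.8 ± 3.23 in deletion males (mean intensity ± SD, n = 3). It was called lower (log2 fold change -1.25 ± 0.10 SE, limma adjusted p = 0.00178). The marker ct, a homeobox gene, gave 0.23, 0.03 and -0.16 as log2 fold changes and no call on 3 probe sets. The cofactor probe sets lay from 7.56 to 8.05 from Sxl, the values nito and U2af38 give at the ends.

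**Figure D2:**
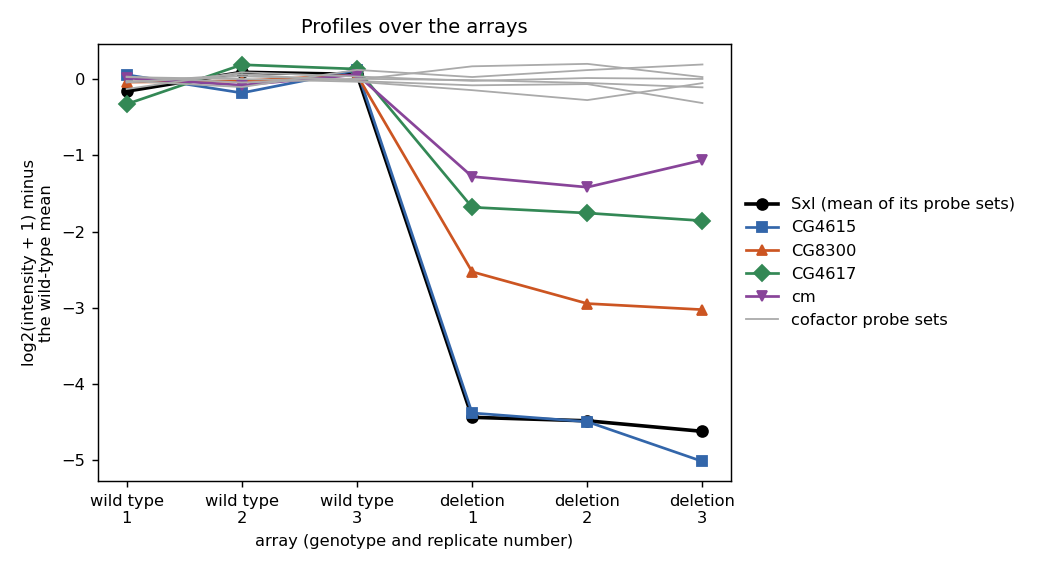
Log2(intensity + 1) minus the wild-type mean (vertical axis) on each array (horizontal axis) for the mean of the Sxl probe sets, for CG4615, CG8300, CG4617 and cm, and, in grey, for the 6 cofactor probe sets. CG4615 runs beside Sxl at a distance of 0.53, and the grey lines stay near 0.

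Among the m6A writer genes, fl(2)d, the Drosophila relative of the writer subunit WTAP, gave the estimate nearest to 0. It read 159.5, 185.9 and 178.9 in wild type and 171.9, 176.4 and 175.0 in deletion males. The deletion values lay inside the wild-type range. Its log2 fold change was 0.00 ± 0.07 (SE, limma adjusted p = 1.00), and the 95% interval ran from -0.16 to 0.16, or from -10.4% to 11.6%. As a value at 0, its sign turned between settings, within -0.06 to 0.05.

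The writer subunit gene vir, which encodes a large scaffold protein of the complex, read 52.6, 49.7 and 58.3 in wild type and 54.5, 58.2 and 61.3 in deletion males. The genotypes overlapped, and the deletion array was the higher of each pair of equal replicate number. The log2 fold change was 0.12 ± 0.09 (SE, limma adjusted p = 0.558), with a 95% interval from -0.08 to 0.31.

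The gene nito (spenito), which encodes an RNA-binding protein of the writer complex from the Spen family, had 2 probe sets that gave nearly the same estimate. The brighter, 1626940_at, read 78.2, 84.3 and 79.3 in wild type and 76.2, 77.1 and 64.7 in deletion males. The dimmer, 1635804_at, read 15.2, 14.9 and 14.5 in wild type and 13.4, 12.1 and 14.3 in deletion males. On both, every deletion value lay below every wild-type value, but by little: 76.2 and 77.1 against 78.2 on the brighter, and 14.3 against 14.5 on the dimmer. Of all tested probe sets 24.0% had genotypes that did not overlap, 12.0% with the deletion lower. The log2 fold changes were -0.15 ± 0.09 and -0.16 ± 0.09 (SE), and neither passed limma (adjusted p = 0.420 and 0.415). Their 95% intervals ran from -0.35 to 0.05 and from -0.36 to 0.05. Deletion replicate 3 was the lowest of its genotype on the brighter probe set and the highest on the dimmer.

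U2AF is a dimer whose large subunit, U2af50, binds the pyrimidine tract and whose small subunit, U2af38, contacts the AG at the end of the intron. U2af38 read 78.7, 82.9 and 80.3 in wild type and 90.8, 92.9 and 82.3 in deletion males. Deletion replicates 1 and 2 were above all wild-type arrays, and replicate 3 lay inside their range. The log2 fold change was 0.13 ± 0.07 (SE, limma adjusted p = 0.385), with a 95% interval from -0.03 to 0.30. U2af50 read 380.2, 360.3 and 372.6 in wild type and 368.3, 358.6 and 344.6 in deletion males. These values overlapped, and the log2 fold change was -0.05 ± 0.05 (SE, limma adjusted p = 0.636), with a 95% interval from -0.17 to 0.06. U2af50 lies on the X chromosome and U2af38 on 2L.

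Of the 6 cofactor probe sets limma called 0, against 2.60% of all tested probe sets. Before adjustment 0 had p under 0.05, against 17.6% of all tested probe sets. With the replicate number as a block, which sets arrays of equal number against each other, limma again called 0, against 7.40% of all tested probe sets. With the block 0 also had p under 0.05 before adjustment, for which the share of all tested probe sets was not computed. In 5 of the 6, fl(2)d being the exception, the 3 pairs of equal number went the same way, as did 44.7% of all tested probe sets. The widest 95% bounds over the 6 were a fall of 22.0%, on nito, and a rise of 24.3%, on vir. Changes beyond these bounds lie outside the intervals of all 6 probe sets, and the intervals of fl(2)d and U2af50 were narrower. A p that misses the threshold does not show that the genotypes had equal levels. Splicing, m6A and protein were not measured.

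**Figure D3:**
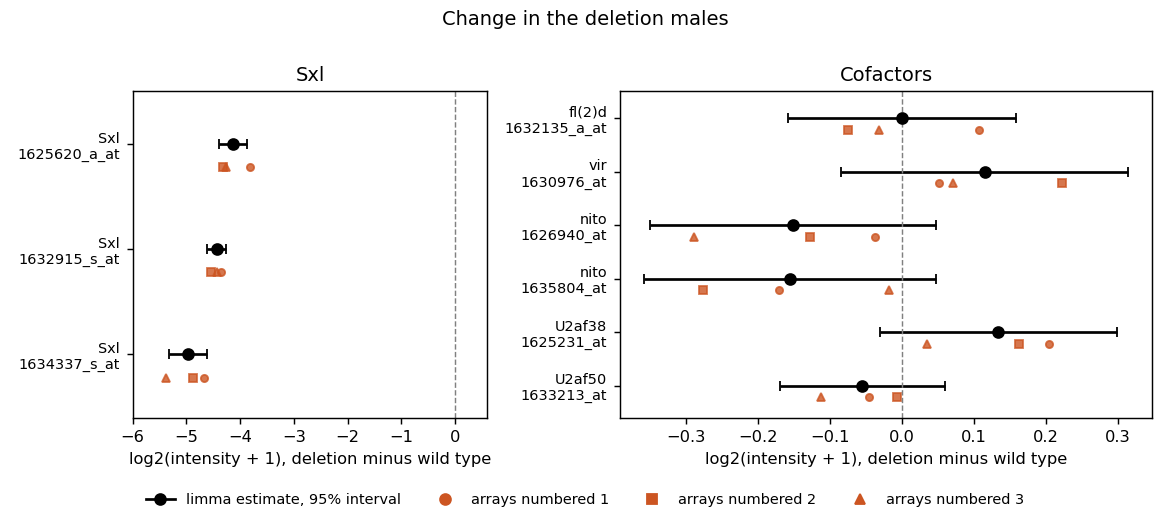
Log2(intensity + 1), deletion minus wild type (horizontal axis), for each probe set, with the limma estimate and its 95% interval in black and the difference of each pair of equally numbered arrays in orange. The horizontal axes of the Sxl and cofactor panels differ: Sxl lies near -4 to -5 and every cofactor interval holds 0.

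Ratios between cofactors within an array were compared after their values were seen. They restate the estimates above and are not a separate check, and ratios of other genes were not computed. The log2 ratio of U2af38 to U2af50 signal averaged -2.19 ± 0.08 on wild-type arrays and -2.00 ± 0.06 on deletion arrays (mean ± SD, n = 3), a difference of 0.19, and the genotypes did not overlap. The exact permutation p (two-sided) was 0.1, the smallest that 3 against 3 arrays allow, and 0.267 adjusted over the 4 ratios tested. The differences for vir over nito, fl(2)d over nito and vir over fl(2)d were 0.27, 0.15 and 0.11, with exact permutation p of 0.2, 0.2 and 0.5 and adjusted p of 0.267, 0.267 and 0.5 (brighter nito probe set, two-sided).

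Other genes of these pathways were taken from 5 lists with 64 genes, of which 53 had a named probe set and 49 were tested, each represented by its brightest tested probe set. None of the 49 was called by limma, against 2.69% of all 8670 genes tested in this way. At p under 0.05 before adjustment there were 2, Hakai and ps, against 18.6% of all genes. Genotypes did not overlap in 8 of the 49, against 25.1% of all genes. With the replicate block the count of calls on these probe sets was again 0, against 7.73% of all genes. Estimates were positive for 28 genes and negative for 21, with a median log2 fold change of 0.02 against 0.00 over all genes, and ranged from -0.20 to 0.22.

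In the list of m6A writers and readers 0 of 5 tested genes were called, with 2 positive and 3 negative and a median of -0.02. The largest estimate was that of Hakai, a ubiquitin ligase found in the writer complex. Hakai read 48.7, 51.6 and 51.4 in wild type and 60.6, 61.1 and 55.1 in deletion males, without overlap (log2 fold change 0.22 ± 0.07 SE, limma adjusted p = 0.183). Ythdf, a cytoplasmic reader of the mark, read 130.8, 135.2 and 136.8 in wild type and 120.5, 122.8 and 128.4 in deletion males, also without overlap (-0.12, limma adjusted p = 0.357). Genotypes did not overlap in these 2 of the 5 genes, against 25.1% of all genes. The writer subunit gene Flacc had 0.10, with overlapping values.

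In the list of U1 and U2 snRNP and branch site proteins 0 of 20 were called, 13 positive and 7 negative, with a median of 0.02. SmD3, a core Sm protein of the snRNPs, had means of 75.2 and 86.0 in wild type and deletion (0.19, limma adjusted p = 0.306). Sf3b2 and Sf3b3, subunits of the U2 snRNP factor SF3b, had 0.10 and -0.08, opposite in sign and each without overlap. These 3 were the only genes of the 20 whose genotypes did not overlap, where 25.1% of all genes did not. LS2, a paralogue of U2af50, lay below the filter, between 5.38 and 8.19 on all arrays.

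In the list of SR and hnRNP splicing regulators 0 of 15 were called, 9 positive and 6 negative, with a median of 0.03. The estimates with the smallest p were those of ps (0.10, limma adjusted p = 0.216), a relative of the mammalian splicing regulator NOVA, of mub (0.09, limma adjusted p = 0.541), a KH-domain RNA-binding protein, and of Psi (-0.20, limma adjusted p = 0.522), known for repressing P element splicing. Some genes here have several probe sets that differ. Doa, a kinase of SR proteins, was at 0.10 on its brightest probe set, while 1623676_at read 35.0, 39.0 and 40.9 in wild type and 56.4, 47.4 and 51.5 in deletion males (0.42 ± 0.10 SE, limma adjusted p = 0.0628, 0.0493 with the replicate block). The dimmer probe set of mub, 1627456_s_at, had 0.25 (limma adjusted p = 0.182, 0.0329 with the replicate block). Both were singled out after their values were seen, and were the only 2 calls with the block among the 61 tested probe sets of the 49 genes, where the block called 7.40% of all tested probe sets.

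In the list of Sxl partners in translation and splicing 0 of 4 were called. Unr, which represses msl-2 translation together with Sxl in females, read 160.9, 167.6 and 173.6 in wild type and 182.9, 183.5 and 177.2 in deletion males. These values did not overlap, as in 25.1% of all genes, and the change did not pass (0.11 ± 0.06 SE, limma adjusted p = 0.338). The poly(A)-binding protein gene pAbp had -0.12, and pps, named as a protein partner of snf, had 0.03, a value whose sign turned without wild-type replicate 1 or deletion replicate 3. In the list of regulators of Sxl transcription 0 of 5 were called, 1 positive and 4 negative, and the genotypes of all 5 overlapped, as against 25.1% of all genes without overlap. The activator gene da had 0.06, the JAK/STAT factor gene Stat92E -0.04 and the zinc finger gene her, at intensities from 8.46 to 12.1, -0.14. The early activators sc and upd1 and the repressor dpn lay below the filter, which is set on the mean over the 6 arrays. Their single values ran from 4.96 to 8.61.

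**Figure D4:**
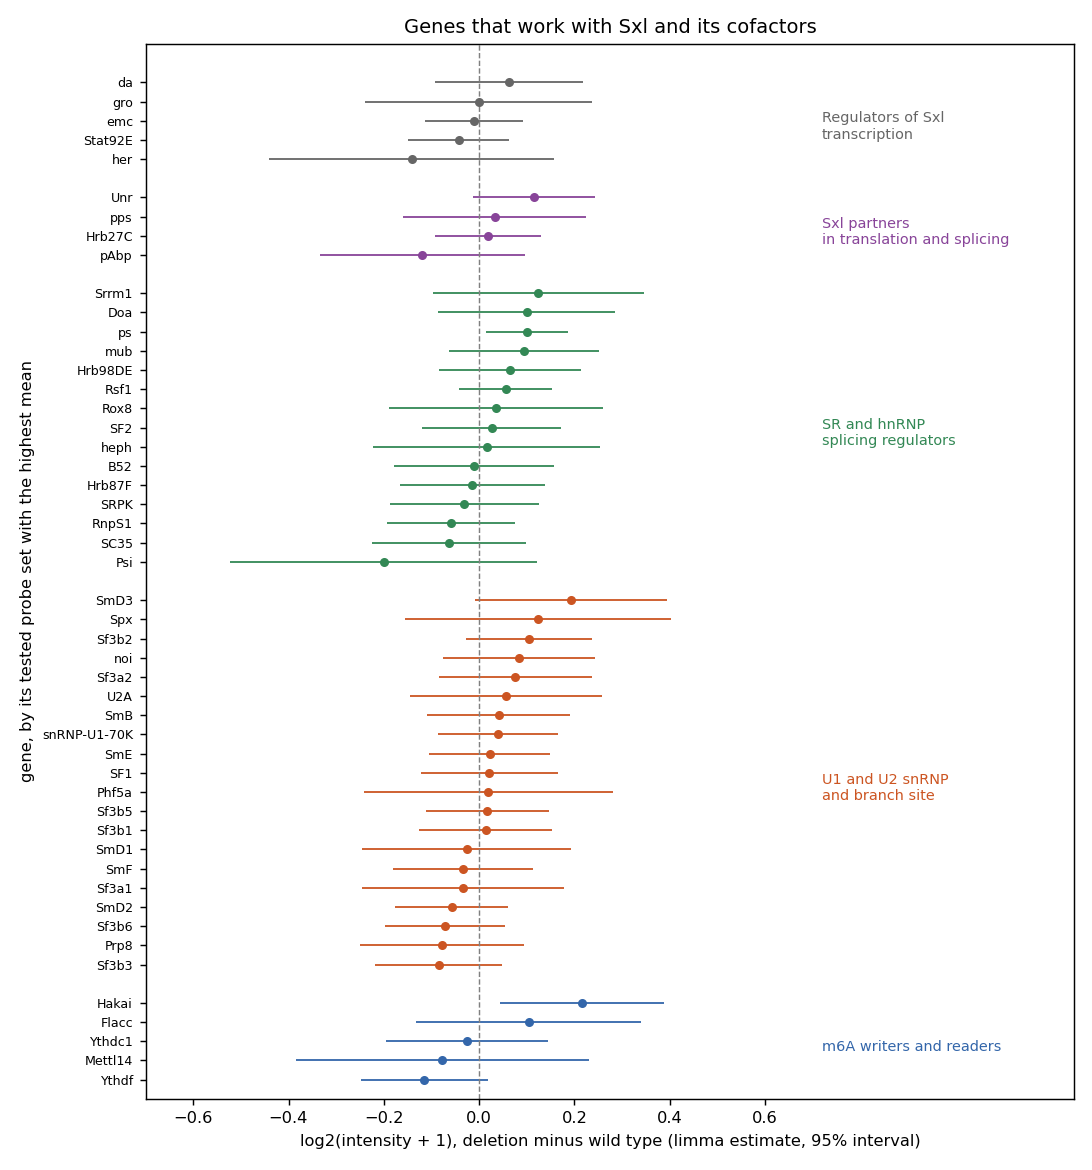
Log2(intensity + 1), deletion minus wild type (horizontal axis), for the 49 tested genes of the 5 lists, each represented by its brightest tested probe set, with the limma estimate as a point and its 95% interval as a line, coloured by list. Estimates run from -0.20 to 0.22, and the intervals of Hakai and ps alone leave out 0, before adjustment over all probe sets.

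The tissue label was checked with 22 marker genes, of which 18 had a named probe set. Neuronal elav, with means of 400.1 in wild type and 418.9 in deletion males, and glial repo, with 383.5 and 342.0, were well above the filter. Of 12 markers of testis, accessory gland, gut and yolk, 10 lay below the filter, and apart from Yp3 none exceeded 14.1 on any array. Yp3, a yolk protein gene, ranged from 58.4 to 85.9 in wild type and from 88.8 to 97.0 in deletion males, without overlap (log2 fold change 0.45, limma adjusted p = 0.142, 0.0567 with the replicate block). Of all tested probe sets 24.0% had genotypes that did not overlap. The other yolk protein genes, Yp1 and Yp2, lay below the filter. Yp1 went the other way (log2 fold change -0.38) and Yp2 had 0.11, each also without overlap. The photoreceptor list rested on trp, which ranged from 2661 to 3836 in wild type and from 4623 to 5003 in deletion males (limma adjusted p = 0.0621, 0.0217 with the replicate block). Among neuronal markers the summed signal ranged from 692.3 to 858.4 and from 812.4 to 925.9, with nSyb, a synaptic vesicle gene, at 0.30 (limma adjusted p = 0.163, 0.0433 with the replicate block), and among glial markers from 900.2 to 1066 and from 933.5 to 1007. The head fat body list rested on Obp99b, which ranged from 3928 to 6410 in wild type and from 2332 to 2964 in deletion males. Obp99b was called lower (log2 fold change -0.91, limma adjusted p = 0.0446, 0.000849 with the replicate block). In whole heads, fewer cells of a type and less RNA per cell cannot be told apart. As a measure of RNA integrity, the 3′ over 5′ signal of GAPDH was 3.67 ± 0.11 in wild-type and 3.81 ± 0.11 in deletion samples (exact permutation p = 0.3, n = 3). That of eIF4a was 3.79 ± 0.27 and 3.40 ± 0.09 (exact permutation p = 0.1), without overlap (3.55 to 4.08 against 3.30 to 3.47). The smallest p that 3 against 3 arrays allow is 0.1, so no integrity test could go under 0.05. Actin had 3.38 ± 0.34 and 3.11 ± 0.29 (exact permutation p = 0.2). For 18S rRNA it was 3.53 ± 0.74 and 3.79 ± 0.56 (exact permutation p = 0.7). The part of these marker and integrity differences in the cofactor values was not tested.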

How the data were processed

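Linear array intensities, 1 per probe set on each of 6 Affymetrix arrays, were deposited by the authors. How these were summarised, corrected for background and normalized is not stated. Array medians ran from 14.2 to 14.6, so no further normalization was applied. Of 18952 probe sets, 183 controls were left out. Gene names came from the platform annotation, in which 13647 probe sets have 1 gene, 402 have several and 4720 have none. Symbols were updated for 13544 through the Entrez identifier and for 91 by name in a RefSeq gene table, and 12 kept theirs. No coordinates are printed, since the genome build of the array's design is not stated.

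The fit used limma 3.58.1 in R 4.3.3 on log2(intensity + 1) (lmFit, then eBayes with an intensity trend, two-sided), with genotype as the only term. The 11261 probe sets with a mean log2 value at or above the 40th percentile were tested, and p was adjusted over all of them by Benjamini-Hochberg with a threshold of 0.05. The standard error of log2 fold changes had a median of 0.08. Arrays have no read depth, and their number sets the precision. Members, lists and tests were chosen with earlier results of these data known. Named genes were all members, cm, ct and the 3 profiles nearest to Sxl. Of each list, the called genes and up to 3 others with the smallest p were named. Outside this rule, Doa was named after its values were seen, and LS2, sc, upd1 and dpn as list genes below the filter.

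Labels do not say what a replicate number stands for. Deviations from genotype means correlated at 0.216, 0.248 and 0.114 between arrays of equal number, all above a bound of 0.1 set by choice. Between arrays of unequal number they correlated at -0.223 to 0.057. The numbers may therefore pair the arrays, on these values alone, and the pairing was not tested. The main results make no use of pairs, and the replicate block is an alternative. As alternatives, the pseudocount, filter, normalization, variance model and array weights were changed, the replicate block was added and each array was omitted in turn.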

Additional observations from a re-analysis of the deposited data

How the results depend on the processing

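The 3 Sxl calls were kept under 15 of 16 alternatives. With the filter at the 60th percentile no Sxl probe set was left to test, so 0 member probe sets were called, by that filter's construction. Cofactors, and the 49 list genes on their brightest probe sets, had 0 calls by limma under all 16. Other probe sets of the list genes were followed only with the block, which called 2, of Doa and mub. The estimates of vir, nito, U2af38 and U2af50 kept their sign wherever they were tested. That of fl(2)d turned to -0.0041 with quantile normalization, -0.020 with median centring, -0.00016 with pseudocount 16 and -0.042 with array weights, and ran from -0.064 to 0.046 with single arrays left out. That of pps ran from -0.027 to 0.070 over these omissions. Over all tested probe sets the count of 293 calls became 128 when the intensity trend was dropped, 572 when arrays were weighted, and 833 with the replicate block. It was 85, 54 and 61 without deletion replicate 1, 2 or 3, 110 and 157 without wild-type replicate 2 or 3, and 432 without wild-type replicate 1. The cause of these shifts was not tested. Other changes of filter, normalization, pseudocount and variance model left this count within 1.5 times. The replicate block changed no call of a member. How near a signal lies to background could not be measured.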
